A study of Mus musculus with 3 samples.

Results

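Interferon-stimulated genes are the genes that cells switch on when interferon reaches them. The list examined here holds 45 mouse genes, named one by one as well-known members of that class. The rule for membership uses names and no measured value, but the list was drawn up with earlier results of these arrays known. A matched probe was found for 42 of them, among 19751 genes with a matched probe. None was matched for Mx1, Mx2 and Oas1b, which have no value here. Nearly all were detected in naive cells: 41 of the 42 genes had a naive signal well above background on all 3 arrays, and Oas1g, an oligoadenylate synthetase gene, was not well above background in any of the 6 channels.

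The arrays compared mouse CD4 T cells cultured for 3 days under Th2, Th9 or induced regulatory T cell (iTreg) conditions with naive CD4 T cells. The naive cells were sorted magnetically from the spleens of C57BL/6 mice aged 6 to 8 weeks. All cultures had plate-bound antibody to CD3e and soluble antibody to CD28 at 10 µg/ml each, and all had an antibody that neutralises interferon gamma. Th2 cultures received IL-2 at 1 ng/ml, IL-4 at 5 ng/ml and anti-interferon gamma at 2 µg/ml. Th9 cultures received IL-2 at 0.2 ng/ml, IL-4 at 1 ng/ml, TGF-beta 1 at 2 ng/ml and anti-interferon gamma at 5 µg/ml. iTreg cultures received IL-2 at 0.4 ng/ml, TGF-beta 1 at 5 ng/ml, and antibodies to interferon gamma and to IL-4 at 5 µg/ml each. Naive cells were not cultured, and the series held no culture activated without polarising cytokines. Activation, time in culture and cytokines therefore cannot be told apart in any comparison with naive cells. Between cultures, several cytokine and antibody doses differed at once, so these cannot be told apart either. Each culture was on 1 two-colour array, with the culture in the Cy5 (red) channel and naive cells in the Cy3 (green) channel, and no dye swap was made. No test across samples was possible, so results are sizes, not p-values. Whether 1 naive RNA was used for all arrays is not given in the labels.

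Type I interferons bind a receptor made of IFNAR1 and IFNAR2. The kinases JAK1 and TYK2 on its tails then phosphorylate STAT proteins, among them STAT2, which works with IRF9 in the transcription factor ISGF3. ISGF3 binds a promoter motif called the interferon-stimulated response element (ISRE), while interferon gamma acts through a different motif, the gamma-activated site (GAS). Many of these genes have a basal level in resting lymphocytes, and their products block viral replication, sense foreign nucleic acid or act on the vacuoles of intracellular pathogens.

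Promoter windows of 300 bases around a gene's start (RefSeq, build GRCm38.p6) were found for 34 of the 45 genes. The ISRE core, GAAA followed by NN and GAAA with N any base, read on both strands, was in a window of 19 of the 34 genes (55.9%), against 1079 of 27025 genes in the whole table (3.99%). The GAS letters TTCNNNGAA, which are their own reverse complement, were in 8 of 34 (23.5%), against 9.55% of all genes. Of 30 distinct ISRE matches, 26 lay upstream of the start, at a median of 61.5 bases, and 4 downstream. Within 100 bases of the start on either side lay 23. Each window reached much further upstream of the start than downstream, where it ended short of 100 bases. The counts on either side therefore do not show a preference for upstream. The stretches below belong to genes that the comparisons between cultures turn on, to Oas3, whose values stood apart from those of its neighbour Oas2, and to the neighbours Igtp and Irgm2. Each is given 5′ to 3′ in the direction of the gene, and capitals mark the ISRE core or its reverse complement.
Isg15, chr4:156200866-156200905, minus strand: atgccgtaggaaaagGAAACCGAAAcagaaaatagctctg
Bst2, chr8:71537572-71537611, minus strand: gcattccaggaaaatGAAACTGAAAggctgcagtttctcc
Gbp2, chr3:142620589-142620628, plus strand: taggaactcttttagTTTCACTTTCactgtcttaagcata
Irgm1, chr11:48871426-48871465, minus strand: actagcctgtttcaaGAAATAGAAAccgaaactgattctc
Trim30a, chr7:104465205-104465244, minus strand: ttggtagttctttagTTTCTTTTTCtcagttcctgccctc
Apol9b, chr15:77729020-77729059, plus strand: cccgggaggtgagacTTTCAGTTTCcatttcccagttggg
Oas3, chr5:120777710-120777749, minus strand: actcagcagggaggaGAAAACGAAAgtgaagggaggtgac
Igtp, chr11:58199507-58199546, plus strand: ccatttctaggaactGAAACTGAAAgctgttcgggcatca
Irgm2, chr11:58214898-58214937, plus strand: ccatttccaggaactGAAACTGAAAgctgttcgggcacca
The same ISRE letters stand in the Bst2, Igtp and Irgm2 stretches and, as the reverse complement, in that of Apol9b. The log2 ratios of iTreg over naive of these 4 genes were -1.76, -1.27, -0.89 and 2.63. In Th2 they were -0.45, -0.76, -1.42 and -1.41, and in Th9 -0.85, -1.21, -1.74 and 1.24. The naive signal of Apol9b also differed between arrays.

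In each culture the interferon-stimulated genes were mostly lower than in naive cells. Values are log2 signals or log2 ratios of culture over naive, and a gene counts as measured where both channels were well above background. At least 2-fold lower were 27 of 37 measured members in Th2 cells, where 14.5% of all measured genes were that much lower. The count was 30 of 34 in Th9 cells (15.6% of all genes) and 22 of 36 in iTreg cells (8.15% of all genes). The higher side was nearly empty, with 0 members in Th2 and 1 in each of Th9 and iTreg, against 14.8%, 15.5% and 10.2% of all genes. The member at least 2-fold higher in Th9 and in iTreg was Apol9b.

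The median log2 ratio of the measured members was -1.42 in Th2, -2.22 in Th9 and -1.33 in iTreg, against -0.02, -0.01 and -0.02 over all measured genes. Members whose culture channel was at background have only a bound and add to the lower side, 4 in Th2, 7 in Th9 and 5 in iTreg. With these at their bound the medians were -1.47, -2.30 and -1.41. On all 3 arrays, 15 of 34 members measured throughout were at least 2-fold lower, where 6.02% of genes were, and 0 were at least 2-fold higher, where 7.29% were. With bounds, 21 members were lower on every array. Another scaling shifts the all-gene median. Centring each array on its median in place of the intensity-dependent (loess) fit put it at 0.33, 0.16 and -0.18. Genes do not all move by the same amount, as the loess fit depends on intensity. The 3 comparisons all have naive cells as control. They cannot be taken as independent of one another, as 1 naive RNA may have been used for all arrays.

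**Figure D1:**
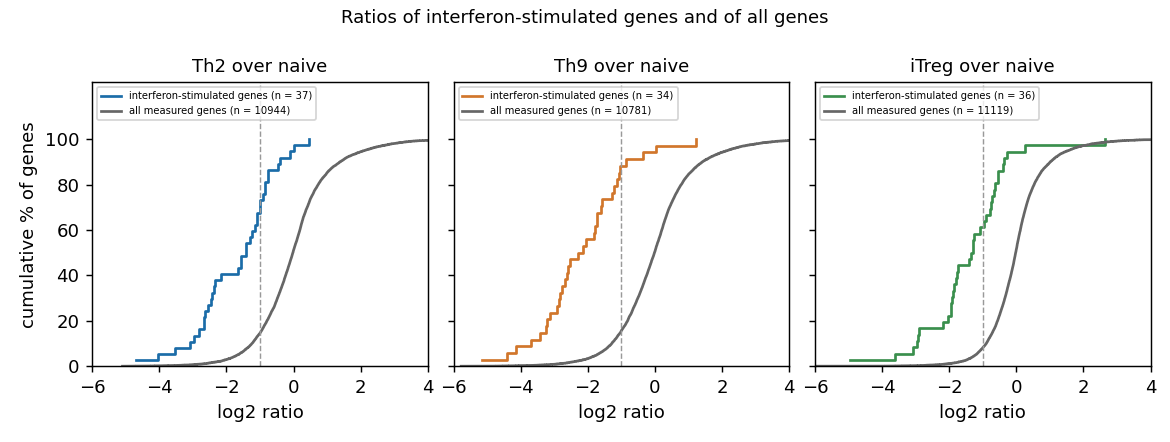
Cumulative share of genes (vertical axis, %) against log2 ratio of culture over naive, for interferon-stimulated genes (coloured) and all measured genes (grey), 1 panel per culture; the dashed line marks 2-fold lower. The coloured curves lie left of the grey ones over most of their length, with medians of -1.42 in Th2, -2.22 in Th9 and -1.33 in iTreg cells.

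The naive channel itself varied little for these genes. Over the 3 arrays the SD of its log2 signal had a median of 0.04 for 41 members and 0.05 for 11516 genes. The exception was Apol9b, with an SD of 0.87. This spread covers labelling and hybridisation, and also cell preparation if the naive RNAs were separate. Errors after ± are the scanner software's error of a log2 ratio within 1 array and do not include differences between cultures. Fewer cells of a type that expresses a gene, and less RNA per cell, cannot be told apart in these bulk samples.

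Of the transcription factors of the response, Irf9 and Irf7 were lower and Stat2 was close to its naive level. Irf9, the DNA-binding part of ISGF3, had log2 signals of 11.19 in Th2, 11.02 in Th9 and 12.09 in iTreg, against 12.84, 12.81 and 12.88 in naive cells on those arrays. Its ratios were -1.64 ± 0.26 in Th2, -1.79 ± 0.27 in Th9 and -0.79 ± 0.22 in iTreg, so all cultures lay below all naive channels and iTreg stood nearest to them. Stat2 had 10.86, 10.53 and 10.54 in the cultures and 10.96, 10.90 and 10.93 in naive cells. Its ratios, -0.10 ± 0.20, -0.37 ± 0.21 and -0.39 ± 0.21, were all under 2-fold. Irf7, which drives interferon alpha genes, was at -2.45 ± 0.39 in Th2 and -2.02 ± 0.33 in iTreg. In Th9 its culture channel was at background, a fold of at least 7.57 lower.

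Sensors of foreign nucleic acid were lower, with Dhx58 as the exception. At least 2-fold lower were 2 of 5 in Th2, 4 of 5 in Th9 and 3 of 5 in iTreg (14.5%, 15.6% and 8.15% of all genes). Ddx58, which encodes the RNA sensor RIG-I, had 10.47, 9.93 and 10.68 in Th2, Th9 and iTreg, against 12.63, 12.55 and 12.48 in naive cells. Its ratios were -2.16 ± 0.29, -2.63 ± 0.33 and -1.80 ± 0.26. A second probe gave -1.27, -1.69 and -1.38, so both probes put all 3 cultures below naive, and they differ in which culture was nearest to it. Zbp1, a sensor of Z-form nucleic acid, had 9.65, 9.56 and 11.07 in the cultures and 12.48, 12.49 and 12.36 in naive cells. It was lower in Th2 (-2.83 ± 0.34) and Th9 (-2.93 ± 0.35) than in iTreg (-1.29 ± 0.24). Its second probe gave -3.69, -3.72 and -2.23, in which iTreg was again nearest to naive. Ifih1, which encodes the RNA sensor MDA5, had 9.32, 7.62 and 8.31 in the cultures against 10.17, 10.22 and 10.21 in naive cells, with ratios of -0.85 ± 0.23, -2.60 ± 0.38 and -1.91 ± 0.30. Its Th2 signal was the nearest to naive. A dimmer Ifih1 probe that was not measured in both channels read -0.11, -0.14 and -0.15. Eif2ak2, the double-stranded RNA-activated kinase PKR, was at -0.76 in Th2, -1.07 in Th9 and -0.56 in iTreg. Dhx58, the regulatory relative of RIG-I and MDA5, had 9.77, 9.36 and 9.62 in the cultures against 9.31, 9.32 and 9.36 in naive cells. Its ratios of 0.46 ± 0.21, 0.04 ± 0.21 and 0.26 ± 0.21 put it slightly above naive but within 2-fold everywhere.

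Among oligoadenylate synthetases, which make the signal that activates the antiviral RNase L, and their OAS-like relatives, Oas1a and Oas2 were among the lowest members of all. Oas1a had 7.27 in Th2, 7.0 in Th9 and 7.80 in iTreg, against 11.32, 11.39 and 11.41 in naive cells. The ratios were -4.04 ± 0.51, -4.39 ± 0.59 and -3.61 ± 0.47, although a dimmer second probe gave -2.03, -2.11 and -1.91. Oas1a is a near copy of other Oas1 genes, and the probes may not read it alone. Oas2 had 7.90, 7.80 and 7.99 in the cultures and 10.97, 10.94 and 11.05 in naive cells. Its ratios of -3.07 ± 0.39, -3.14 ± 0.41 and -3.06 ± 0.40 were nearly the same in all cultures. Oas3, the gene next to Oas2, had 8.37, 7.20 and 7.45 in the cultures against 8.34, 8.32 and 8.40 in naive cells. It was at naive level in Th2 (0.03 ± 0.21) and lower in Th9 (-1.12 ± 0.28) and iTreg (-0.95 ± 0.25), so the neighbours differed by 3.10, 2.02 and 2.11 log2 units. Oasl1 had 9.98 in Th2, 8.65 in Th9 and 8.57 in iTreg, against 11.55, 11.49 and 11.53 in naive cells. Ratios were -1.58 ± 0.26, -2.84 ± 0.36 and -2.95 ± 0.38, with Th2 the nearest to naive. Oasl2 was at -2.38 in Th2, and its culture channel was at background in Th9 and iTreg, at least 7.23-fold and 5.29-fold lower.

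The IFIT genes, whose proteins bind viral RNA, were at least 2-fold lower in every culture, counting the bounds. Ifit3 had 8.48, 8.57 and 8.56 in Th2, Th9 and iTreg, against 10.83, 10.87 and 10.75 in naive cells, and ratios of -2.35 ± 0.32, -2.30 ± 0.32 and -2.19 ± 0.31. Ifit2, its neighbour, had 7.46, 7.52 and 8.33 in the cultures and 10.12, 10.30 and 10.28 in naive cells, with ratios of -2.66 ± 0.39, -2.78 ± 0.40 and -1.95 ± 0.30. The cultures were nearly level for Ifit3, while iTreg stood above Th2 and Th9 for Ifit2. Ifit1 was at -2.56 in Th2 and at background in Th9 and iTreg, at least 11.9-fold and 8.67-fold lower.

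**Figure D2:**
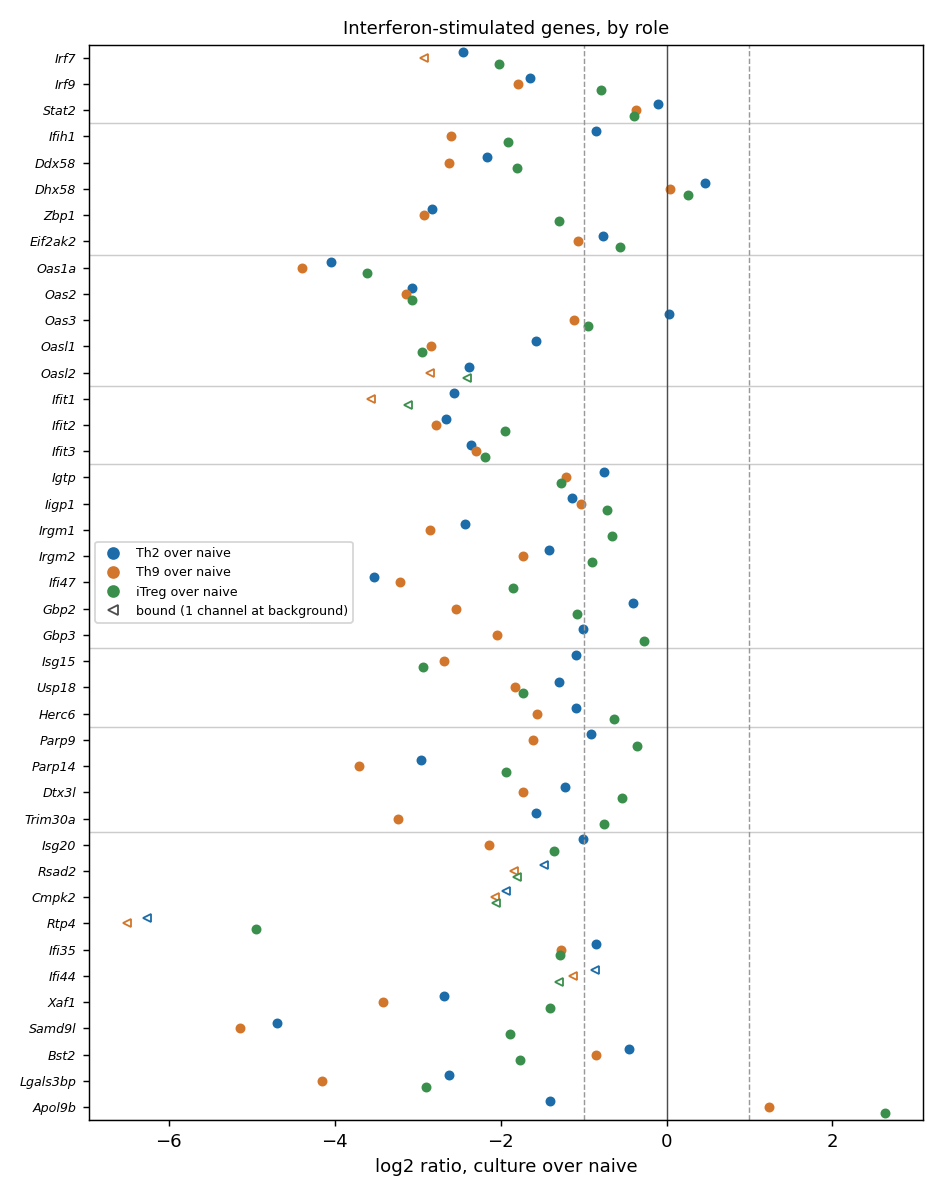
Log2 ratio of culture over naive (horizontal axis) for 41 interferon-stimulated genes, grouped by role between grey lines; filled points are measured ratios in Th2 (blue), Th9 (orange) and iTreg (green) cells, open triangles are bounds where the culture channel was at background, and dashed lines mark 2-fold. Nearly all points lie left of 0; Dhx58 lies at 0.04 to 0.46, and Apol9b reaches 1.24 in Th9 and 2.63 in iTreg.

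The GTPases that act on pathogen vacuoles, the immunity-related (IRG) and guanylate-binding (GBP) families, were lower in all cultures, but by very different amounts. At least 2-fold lower were 5 of 7 in Th2, 7 of 7 in Th9 and 3 of 7 in iTreg (14.5%, 15.6% and 8.15% of all genes). Ifi47, the brightest of them in naive cells by its own probe, had 12.14, 12.42 and 13.78 in the cultures against 15.67, 15.63 and 15.63. Its ratios were -3.53 ± 0.38 in Th2, -3.22 ± 0.35 in Th9 and -1.85 ± 0.26 in iTreg. Igtp (also called Irgm3) had 13.60, 13.09 and 13.01 in the cultures and 14.36, 14.30 and 14.27 in naive cells, with ratios of -0.76 ± 0.21, -1.21 ± 0.23 and -1.27 ± 0.23. For Ifi47 the iTreg culture was nearest to naive, whereas for Igtp it was Th2.

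Irgm1, an IRG that guards host membranes, had 9.68 in Th2, 9.29 in Th9 and 11.56 in iTreg, against 12.12, 12.14 and 12.21 in naive cells. Its ratios were -2.43 ± 0.31, -2.85 ± 0.35 and -0.65 ± 0.21, and a second probe gave -2.06, -2.35 and -0.37. Gbp2 had 11.60, 9.35 and 10.80 in the cultures against 12.01, 11.89 and 11.88 in naive cells, and ratios of -0.41 ± 0.21, -2.54 ± 0.32 and -1.08 ± 0.23. The Th9 signal of Gbp2 thus stood apart from the other two cultures. Gbp3 had 9.22, 8.16 and 9.88 in the cultures and 10.22, 10.20 and 10.15 in naive cells, with ratios of -1.0 ± 0.23, -2.04 ± 0.30 and -0.27 ± 0.21. Irgm2, the neighbour of Igtp with a nearly identical stretch at its ISRE, was at -1.42 in Th2, -1.74 in Th9 and -0.89 in iTreg. Iigp1 had 7.48, 7.57 and 7.95 in the cultures and 8.62, 8.60 and 8.67 in naive cells, at -1.14 ± 0.27, -1.03 ± 0.26 and -0.72 ± 0.23.

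Isg15, a ubiquitin-like protein that is conjugated to other proteins, was much nearer to naive in Th2 than in Th9 and iTreg. It had log2 signals of 12.44 in Th2, 10.78 in Th9 and 10.56 in iTreg, against 13.53, 13.46 and 13.49 in naive cells. The ratios were -1.09 ± 0.23, -2.68 ± 0.33 and -2.93 ± 0.35, and a second probe gave -0.58, -2.14 and -2.28. Usp18, which removes ISG15 from proteins and dampens the interferon receptor, had 10.00, 9.47 and 9.55 in the cultures and 11.30, 11.30 and 11.28 in naive cells. Its ratios of -1.30 ± 0.24, -1.83 ± 0.27 and -1.73 ± 0.27 were at least 2-fold lower throughout. Herc6, the ISG15 ligase of mice, was at -1.09 in Th2, -1.56 in Th9 and -0.64 in iTreg. Its second probe, measured in iTreg, read 0.00.

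PARP9, PARP14 and DTX3L, which modify proteins with ADP-ribose and ubiquitin, are encoded side by side. With the loess fit all were lowest in Th9 and highest in iTreg. Over the scalings tried, iTreg minus Th2 ranged from -0.10 to 0.63 for Parp9 and from 0.03 to 0.84 for Dtx3l. Parp14 had 9.13 in Th2, 8.33 in Th9 and 10.16 in iTreg, against 12.09, 12.03 and 12.09 in naive cells, and ratios of -2.96 ± 0.36, -3.71 ± 0.44 and -1.94 ± 0.28. Dtx3l had 10.83, 10.44 and 11.66 in the cultures and 12.06, 12.17 and 12.19 in naive cells, at -1.22 ± 0.24, -1.72 ± 0.27 and -0.53 ± 0.21. Parp9 had 10.53, 9.88 and 11.11 in the cultures and 11.45, 11.50 and 11.47 in naive cells, at -0.92 ± 0.23, -1.61 ± 0.26 and -0.36 ± 0.21. Dtx3l and Parp9 differed by 0.31, 0.11 and 0.17 log2 units, while Parp14 was lower than Dtx3l by 1.74, 1.98 and 1.40. Trim30a, a tripartite-motif protein, had 9.60, 7.91 and 10.37 in the cultures against 11.18, 11.15 and 11.13 in naive cells. Its ratios of -1.58 ± 0.26, -3.23 ± 0.41 and -0.76 ± 0.22 followed the same order of cultures.

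The remaining effectors held the lowest and the highest ratios. Rtp4, a receptor transporter protein, had 6.21 in Th2, 6.26 in Th9 and 7.98 in iTreg, against 12.82, 12.92 and 12.93 in naive cells. Its culture channel was at background in Th2 and Th9, at least 77.0-fold and 90.8-fold lower, and its ratio in iTreg was -4.94 ± 0.58. Samd9l, a cytosolic restriction factor of viruses, had 7.89, 7.49 and 10.81 in the cultures against 12.59, 12.63 and 12.70 in naive cells. Its ratios were -4.70 ± 0.54 in Th2, -5.14 ± 0.60 in Th9 and -1.89 ± 0.27 in iTreg. Its second probe gave -4.43, -4.91 and -1.83. For both genes iTreg stood above the other cultures and well below naive.

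Lgals3bp, a secreted glycoprotein, had 10.49, 8.89 and 10.11 in the cultures and 13.12, 13.04 and 13.02 in naive cells. Its ratios were -2.62 ± 0.32, -4.15 ± 0.46 and -2.90 ± 0.34, where a second probe gave only -1.50, -2.0 and -1.55. Both probes put Th9 lowest. Xaf1, a pro-apoptotic factor, had 8.23, 7.49 and 9.57 in the cultures against 10.91, 10.91 and 10.98 in naive cells, at -2.68 ± 0.37, -3.42 ± 0.43 and -1.41 ± 0.25, but a second probe read 0.31 in iTreg. Bst2, the tetherin that holds budding virions at the cell surface, had 12.38, 11.99 and 11.11 in the cultures against 12.83, 12.84 and 12.87 in naive cells. Its ratios of -0.45 ± 0.21, -0.85 ± 0.22 and -1.76 ± 0.26 made iTreg the lowest culture. Isg20, an exonuclease, was at -1.01, -2.14 and -1.36, and Ifi35 at -0.85, -1.27 and -1.28. Rsad2 (viperin) and its neighbour Cmpk2, a nucleotide kinase, were at background in all cultures, at least 2.77-fold lower (Rsad2 in Th2) to at least 4.19-fold lower (Cmpk2 in Th9). Ifi44 was also at background in all cultures, at least 1.82-fold, 2.19-fold and 2.46-fold lower.

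Apol9b, an apolipoprotein L gene, was the one member with opposite directions. It had 7.29 in Th2, 10.22 in Th9 and 12.97 in iTreg, against 8.70, 8.98 and 10.33 in the naive channels of those arrays. The ratios were -1.41 ± 0.30, 1.24 ± 0.24 and 2.63 ± 0.32. The naive signal was itself highest on the iTreg array, where the culture was also brightest, and the part of this in the ratios was not tested. In the culture channels alone, Th2 was lowest and iTreg highest.

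Between cultures, most members stood lower in Th9 than in Th2 (30 of 34 differences below 0, against 5545 of 10457 over all genes). Most also stood higher in iTreg than in Th9 (6 of 34 below 0, against 5164 of 10479 over all genes). In Th9 relative to Th2, 9 of 34 members were at least 2-fold lower (1.38% of all genes) and 1 was higher (1.28%), with a median difference of -0.45 against -0.02 over all genes. The largest negative differences were in Gbp2 (-2.13), Ifih1 (-1.75) and Trim30a (-1.66). The positive ones were in Apol9b (2.65), Ifi47 (0.31), Iigp1 (0.11) and Ifit3 (0.05). Only Apol9b of those passed 2-fold. In iTreg relative to Th9, 14 of 34 members were at least 2-fold higher (6.8% of all genes) and 0 were lower (6.29%), with a median of 0.83 against 0.01 over all genes. Samd9l (3.25), Trim30a (2.48) and Irgm1 (2.20) differed most, and all 4 genes of the PARP, DTX3L and TRIM30A group were at least 2-fold higher. Under another scaling Dtx3l (0.78) and Parp9 (0.86) no longer passed 2-fold. Bst2 (-0.91), Isg15 (-0.25) and Oasl1 (-0.11) were the lowest. With median centring 9 members were higher and 1 lower, while all genes stood at -0.37. Relative to the all-gene median, 14 were then higher and 1 lower, against 13 and 0 with the loess fit.

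**Figure D3:**
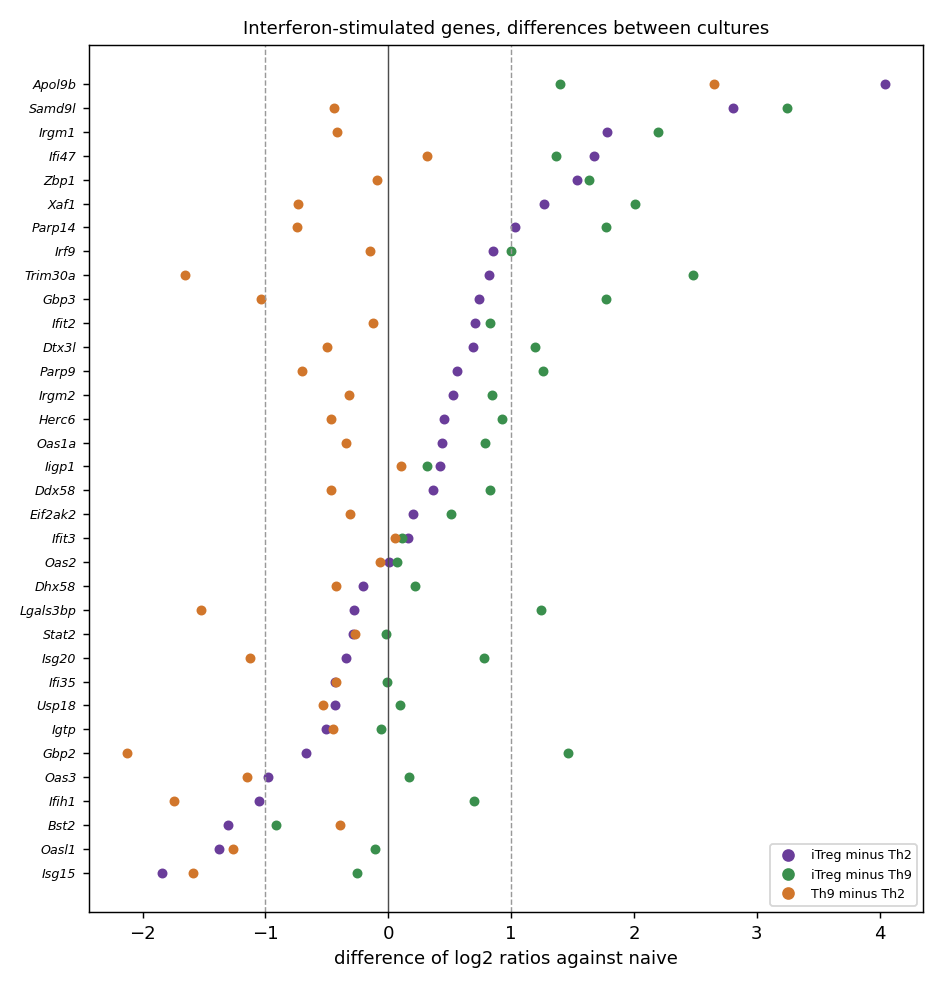
Difference of log2 ratios against naive (horizontal axis) for the 34 interferon-stimulated genes measured on all arrays, ordered by iTreg minus Th2 (purple), with iTreg minus Th9 (green) and Th9 minus Th2 (orange); dashed lines mark 2-fold. Samd9l and Irgm1 lie far right in both iTreg differences, at 2.81 and 1.78 against Th2, while Isg15 (-1.84), Oasl1 (-1.38) and Bst2 (-1.31) lie left of -1 against Th2.

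In iTreg relative to Th2 the genes went both ways. At least 2-fold higher were 7 of 35 (6.86% of all genes) and 4 were lower (6.69%), and the median of 0.42 did not keep its direction. With median centring it was -0.16, with 3 genes higher and 11 lower, while all genes stood at -0.59. Relative to all genes the members' median was higher by 0.43 with either scaling. Higher were Apol9b (4.04), Samd9l (2.81), Irgm1 (1.78), Ifi47 (1.68), Zbp1 (1.54), Xaf1 (1.27) and Parp14 (1.03), and lower were Isg15 (-1.84), Oasl1 (-1.38), Bst2 (-1.31) and Ifih1 (-1.05). These 11 genes kept their sign under every scaling tried. Of the 34 genes, 24 had their lowest ratio in Th9, 4 in Th2 and 6 in iTreg, where over all genes the shares were 30.7%, 26.5% and 42.8%. The highest ratio was in iTreg for 21, in Th2 for 13 and in Th9 for 0, where over all genes the shares were 43.1%, 29.9% and 27%.

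Members with an ISRE in the window were not the lower ones at the median. Members with the letters had medians of -1.09 in Th2, -2.17 in Th9 and -1.01 in iTreg. The medians of members with a window that lacked them were -2.38, -2.78 and -1.63. Lower on all 3 arrays were 4 of 16 with an ISRE and 7 of 11 without. Samd9l, Ifi47 and Lgals3bp were among those without. Oas1a, with the letters, was at -4.04, -4.39 and -3.61, lower than Ifi47 and Lgals3bp in each culture. Rtp4 and Oas2 had no window. Among measured genes outside the list, 30 of 290 with the ISRE letters were lower on all 3 arrays (10.3%), and 468 of 8048 without (5.82%).

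The genes of the pathway that feeds the response did not move together. At the receptors, Ifnar1 was at -1.09 ± 0.23 in Th2, -1.16 ± 0.24 in Th9 and -0.14 ± 0.20 in iTreg, while Ifnar2 was at least 2-fold higher in all, at 1.30 ± 0.24, 1.73 ± 0.26 and 1.73 ± 0.26. Ifngr1, the ligand-binding chain for interferon gamma, had 11.39, 12.37 and 13.65 in the cultures against 13.05, 13.05 and 12.94 in naive cells. It was lower in Th2 (-1.66 ± 0.26) and under 2-fold in Th9 (-0.68 ± 0.21) and iTreg (0.71 ± 0.21). Ifngr2 was at 0.20, 0.88 and 0.31. Jak1 was lower throughout, at -2.44 ± 0.30, -2.26 ± 0.29 and -1.29 ± 0.23, and Tyk2 stayed within 2-fold at -0.50, -0.84 and -0.84. Jak2 was at 0.41, -0.03 and 0.52.

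Interferon regulatory factors outside the list split into both directions in every culture. Irf1, an early interferon gamma target, was at -1.80 ± 0.26 in Th2, -2.14 ± 0.28 in Th9 and -2.23 ± 0.29 in iTreg. Irf3, which induces interferon beta, was at -2.25 ± 0.28, -2.40 ± 0.30 and -1.72 ± 0.25. Irf4, a factor of activated T cells, was at 3.87 ± 0.45, 3.56 ± 0.42 and 3.59 ± 0.43. Irf8 was at 1.58, 2.17 and 2.89, and Irf5 at 1.67, 2.74 and 2.42. Irf2 was within 2-fold, at -0.12, -0.24 and -0.25. Ifng itself had 8.79, 7.67 and 7.66 in the cultures against 10.21, 10.22 and 10.22 in naive cells, at -1.42 ± 0.26, -2.55 ± 0.37 and -2.56 ± 0.38. Ifnk, the interferon kappa gene, was higher by at least 1.75-fold in Th2, 2.16-fold in Th9 and 2.40-fold in iTreg, its naive channel being at background. Of the other ligand probes, those of Ifna1, Ifna2, Ifna5 and Ifnl3 were dim but measured on all arrays, with ratios within 2-fold. Ifnb1 was measured on the Th9 array only, at 0.50. Ifna4 and Ifne were at background in all channels.

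**Figure D4:**
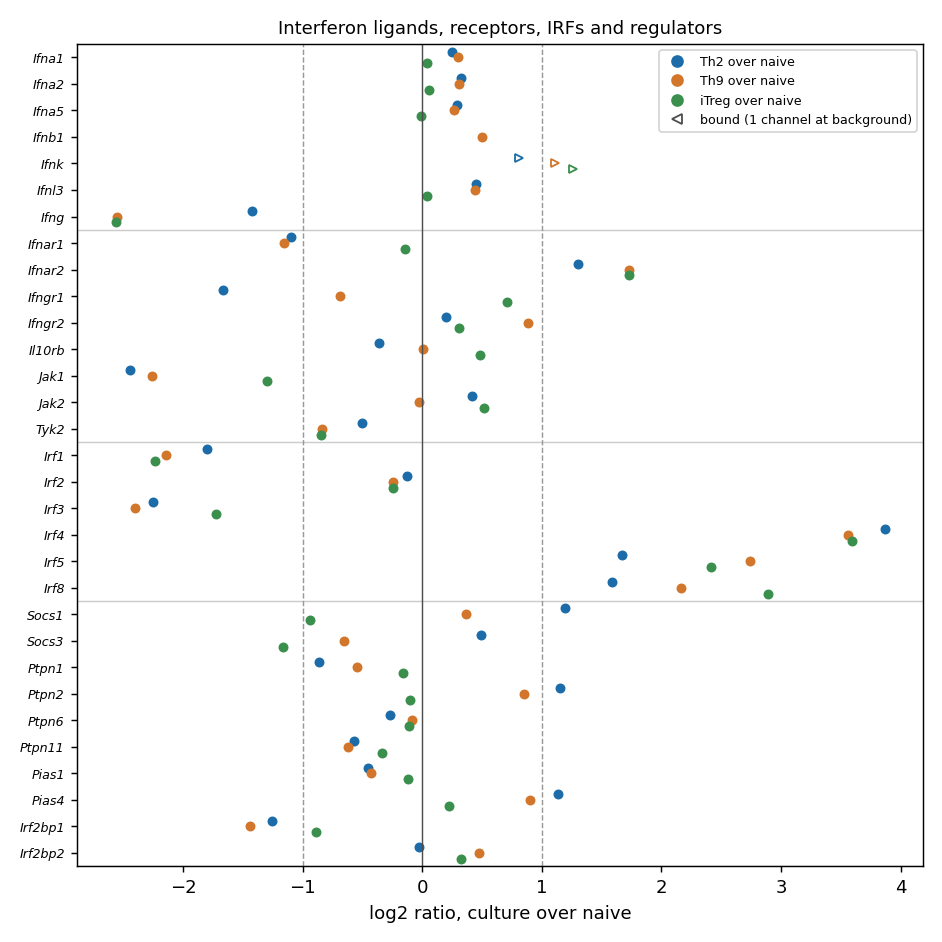
Log2 ratio of culture over naive (horizontal axis) for interferon ligands, receptors with JAKs, other interferon regulatory factors and negative regulators, grouped from top to bottom; colours and symbols are Th2 (blue), Th9 (orange), iTreg (green) and open triangles for bounds. Irf4 lies furthest right at 3.56 to 3.87, and Jak1, Irf1 and Irf3 lie left of -1 in all cultures.

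A further list of 55 interferon-stimulated genes, 49 with a probe, was also mostly lower. At least 2-fold lower were 23 of 42 in Th2, 26 of 39 in Th9 and 21 of 45 in iTreg, and 1 was higher in each, Ifitm2, at 3.38, 3.38 and 3.04. The lowest were Ifi204 in Th2 (-4.93) and Th9 (-4.66) and Nlrc5, an activator of MHC class I genes, in iTreg (-3.40). In iTreg relative to Th9, 17 of 38 were higher and 1 was lower, against 6.8% and 6.29% of all genes. Of 10 negative regulators of interferon signalling, 3 were higher in Th2 and 0 in either other culture, and 1 was lower in each. Over all genes 14.8%, 15.5% and 10.2% were higher in the 3 cultures, and 14.5%, 15.6% and 8.15% were lower. Of 11 measured genes for the induction of interferon, 3, 4 and 2 were lower and 0 were higher, with extremes of -1.51 (Traf3, Th2), -1.69 (Ikbke, Th9), -1.70 (Cgas, iTreg) and 0.58 (Ticam1, Th2).

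The cultures carried their defining genes. Il4 was at 5.08 ± 0.61 in Th2, Il9 at 6.52 ± 0.81 in Th9 and Foxp3 at 3.49 ± 0.40 in iTreg. T cell markers were measured in all channels, with medians of -1.12, -1.41 and -0.35 in Th2, Th9 and iTreg. At least 2-fold lower than in naive cells were 4 of 7 in Th2, 6 of 7 in Th9 and 0 of 7 in iTreg. Over all genes the shares were 14.5%, 15.6% and 8.15%. Markers of naive T cells had medians of -3.10, -2.99 and -1.27. Naive samples also had signal for markers of other cells. Summed signals of 10 NK and CD8 T cell markers were 14011, 7000 and 8843 in the cultures against 81108, 77485 and 75764 in naive cells, led by Gzma in naive cells, with Cd8a at background in all channels. Those of 12 myeloid markers with a probe were 15816, 19603 and 47037 against 56390, 57147 and 58902, led by Ctss. Those of 8 plasmacytoid dendritic cell markers were 36661, 34028 and 51973 against 65574, 64133 and 53256, led by Siglech. In that list Tcf4 went the other way in Th2 (1.33) and Th9 (1.52), and another marker stood at 3.70 in Th2. Of the 5 markers measured in Th2, 2 were lower and 2 higher. Among 8 B cell markers 6 were at background in every channel, including Ms4a1, and the summed signals were 2983, 2904 and 2843 against 1406, 1375 and 1404. Of the 2 measured, 1 was at 2.08, 2.03 and 1.83 in Th2, Th9 and iTreg, and the other at -0.77, -0.85 and -0.01. The part of these cells in the lower interferon-stimulated genes was not tested.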

How the data were processed

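Each culture was measured on 1 Agilent mouse array against naive cells. The authors deposited scanner files of spot intensity (Feature Extraction 11.0.1.1 per the file headers, 9.3.2.1 per the submitters' processing notes), with log10 ratios and their error, and other columns that hold quality flags, per the file headers. A table of log2 ratios deposited by the authors was used as an alternative, and how it was normalised is not given in the sources used here.

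Median signals were background-corrected with normexp (offset 50) and fitted by loess within each array in limma 3.58.1 (R 4.3.3). Control and outlier spots had no weight, spots of 1 probe were averaged, and the brightest probe stood for a gene. Of 39429 gene probes, 26055 were named through their accession in a RefSeq table (GRCm38.p6), and the array's design was older. Channel signals were then put on 1 scale (Aquantile). Between 48.9% and 54.1% of spots were well above background per channel and 0 were saturated. The SD between repeat spots of a probe was 0.08 to 0.09 on the log2 scale at the median, and 3 arrays limit the precision of every value.

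Where 1 channel was at background, the ratio is a bound. It sets the measured channel against the lowest well-above-background signal of the dim channel, or against the dim probe's own signal where that was higher, and is written "at least". The size rule was 2-fold, and no p-value was computed. Differences between cultures are differences of ratios against naive. The calculation was tested on simulated data. All 45 members may be named. Full values are given for the brightest members of each role, the extremes of each culture and the largest differences between cultures, and pathway and marker genes follow a similar rule. The members and gene lists were chosen with earlier results of these data known. Cultures were not grouped or pooled. The alternatives changed the background correction, normalisation, probe choice, dim-signal filter and fold, and left out each array in turn. Mx1, Mx2 and Oas1b were not analysed here. Some genes of the fixed lists are not reported here.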

Additional observations from a re-analysis of the deposited data

Results flagged for a closer look

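A few genes moved to opposite sides of their naive level in different cultures, each by more than the scanner's error on 1 array. With 1 array per culture, none of these differences was tested. Apol9b was higher in Th9 than in Th2 by 2.648 log2 units and higher in iTreg than in Th2 by 4.044, and its naive signal also differed between arrays. Ifngr1 was higher in iTreg than in Th2 by 2.373 and than in Th9 by 1.394. Il10rb, a chain of the interferon lambda receptor, was higher in iTreg than in Th2 by 0.8495.

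Among the negative regulators, Socs1 was lower in iTreg than in Th2 (-2.127) and than in Th9 (-1.302). Socs3 was lower in Th9 than in Th2 (-1.149) and in iTreg than in Th2 (-1.653). Among the further interferon-stimulated genes, Ifi27l2a was higher in iTreg than in Th2 by 1.167 and than in Th9 by 2.165. Its naive signal had an SD of 0.42 over the arrays.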

How the results depend on the processing

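No paired analysis was possible because each culture had 1 array and no replicate. Under each alternative named here the members' median stayed below 0 in each culture, and 152 of 196 alternative values of the counts and medians were close to the reported value. With median centring the medians were -1.04 in Th2, -2.11 in Th9 and -1.54 in iTreg. The differences were then -0.68 (Th9 minus Th2), 0.43 (iTreg minus Th9) and -0.16 (iTreg minus Th2, the one reversed), with 3 higher and 11 lower in iTreg than in Th2 and 9 higher and 1 lower than in Th9. The all-gene medians shifted as well, to -0.23, -0.37 and -0.59 in the same order of differences. Without normalisation the members' medians were -1.08, -1.92 and -1.02, and 1 member was lower in iTreg than in Th9. From the scanner's processed signals they were -1.82, -2.77 and -1.64, with differences of -0.71, 1.06 and 0.32 in the order above. An offset of 0 gave -1.57 in Th2 and -2.32 in Th9, and 0.95 and 0.52 for iTreg against Th9 and Th2. The authors' deposited table gave -1.68 in Th2 and -2.51 in Th9, and differences of -0.59 and 1.08. Averaging probes gave -2.10 in Th9 and 0.28 for iTreg minus Th2, which was 0.25 without the filter on dim signals. The dimmer probe of members with several, tried after seeing the data, gave -2.04 in Th9.

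At 1.5-fold, 24 members were lower on all arrays, 12 were higher in iTreg than in Th2 and 1 was lower in iTreg than in Th9. At 3-fold, 9 were lower on all arrays and 16 in Th2, and 0 were higher in Th9. Between cultures 4 were then lower in Th9 than in Th2, 4 higher and 1 lower in iTreg than in Th2, and 7 higher in iTreg than in Th9. Leaving out 1 array at a time gave 16 to 23 members lower on both others, with 23 without iTreg, and 0 to 1 higher, the 1 being Apol9b without Th2. By the rules' construction, a looser fold or fewer arrays cannot lower such counts, and a stricter fold cannot raise them. The construction does not fix the sizes of these changes. The cause of the sizes and of the other shifts was not tested. Shares of all genes were not computed at 1.5-fold, at 3-fold or with an array left out. Dim culture channels limit 4 to 7 members per culture to bounds.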
